A study of Mus musculus with 6 samples.

Results

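The respiratory chain of the mitochondrial inner membrane and its ATP synthase were read on mouse two-colour spotted arrays through 79 genes, among 13409 genes named on the array. Genes were chosen by symbol: those starting with Nduf (complex I and its assembly factors), with Sdh followed by a, b, c or d (complex II), with Uqcr, or named Cyc1 or Cycs (complex III and cytochrome c), with Cox4 to Cox8 (complex IV), or with Atp5 (complex V). They lay on 99 spots; 74 genes had 1 spot, 4 had 2, and Cyc1 had 17. Of the 79 genes, 75 had enough values to be tested, against 12826 of all genes; the other 4, Ndufa10, Ndufa11, Ndufaf2 and Ndufs8, had fewer than 2 values in a dye orientation.

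Epididymal white fat was taken from male C57BL/6J mice 12 weeks old, 3 hr after 1 mg per kg body weight of CL-316,243, which activates beta3-adrenergic receptors and so sets off lipolysis in fat cells, or after saline. RNA of 6 mice was combined into 1 pool per treatment, and both pools were hybridised together on 6 arrays, with the agonist pool in channel 1 on arrays 1, 2 and 3 and in channel 2 on arrays 4, 5 and 6. Since 1 pair of pools was hybridised 6 times, p-values cover the spread between arrays only, and the spread between mice is unknown. Values are log2 ratios as deposited; the labels do not say which pool is the numerator. The sample titles name agonist-treated tissue on every array, which makes the agonist pool the likely numerator in both orientations. Of 86 spots whose means reached 1 in size under both orientations, 85 kept their sign between them. The columns had been placed on probe numbers by their agreement (see the processing below), which favours a kept sign, so this count is not independent support. If saline were the numerator, every sign below would turn. In such bulk tissue, fewer cells of a type and less RNA per cell cannot be told apart.

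Complex I takes electrons from NADH and complex II from succinate; both pass them to ubiquinone, from which complex III hands them to cytochrome c and complex IV to oxygen. The proton gradient that complexes I, III and IV build drives ATP synthesis in complex V, or is released as heat by the uncoupling protein Ucp1 in brown and beige fat cells. White fat cells hold few mitochondria; prolonged beta3-adrenergic stimulation is known to raise their mitochondrial content, in part through Ppargc1a, a coactivator that works with the transcription factors NRF1 and GABP on many nuclear genes of the chain. All genes described here are nuclear.

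Many promoters of these genes carry the recognition letters of NRF1, and a pair of them is shown because the genes had ratios of opposite sign. Promoter sequences, from 250 bases before to 50 after the annotated start, came from RefSeq (GRCm38.p6) and were at hand for 66 of the 79 genes; those of Cox4i2, Cox4i1 and Cyc1 were not used here. Ndufaf4, an assembly factor of complex I, has its promoter at chr4:24897833-24898132 on the plus strand, with 1 stretch that matches GCGCANGCG on either strand. Sdha, the flavoprotein of complex II that oxidises succinate, has its promoter at chr13:74350191-74350490 on the minus strand, with 3 such stretches. Capitals mark the matches, and each sequence is written 5' to 3' along the gene's strand.
Ndufaf4 promoter: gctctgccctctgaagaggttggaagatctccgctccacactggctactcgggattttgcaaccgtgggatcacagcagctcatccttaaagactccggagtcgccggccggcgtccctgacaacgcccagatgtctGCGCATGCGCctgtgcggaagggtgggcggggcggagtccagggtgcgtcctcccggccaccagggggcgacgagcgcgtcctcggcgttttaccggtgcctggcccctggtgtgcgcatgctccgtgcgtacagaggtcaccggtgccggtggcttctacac
Sdha promoter: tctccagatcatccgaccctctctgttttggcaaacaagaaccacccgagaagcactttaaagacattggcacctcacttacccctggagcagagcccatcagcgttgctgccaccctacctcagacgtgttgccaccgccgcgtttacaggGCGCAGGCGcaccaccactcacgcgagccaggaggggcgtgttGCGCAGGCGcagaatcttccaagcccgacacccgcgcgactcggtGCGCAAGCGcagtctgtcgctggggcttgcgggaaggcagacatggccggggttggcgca
The NRF1 letters GCGCANGCG, searched on both strands, were in 19 of the 66 promoters (28.8%), against 7.03% of 27025 genes with a promoter of the same length. The GABP letters CCGGAAG were in 16 (24.2%), against 9.93%, and the cAMP response element TGACGTCA in 5 (7.58%), against 2.03%; these letter strings do not contain one another. The median log2 ratio of tested genes was -0.06 for 18 with the NRF1 letters and -0.07 for 44 without. It was -0.03 for 15 with the GABP letters and -0.08 for 47 without, and -0.04 for 3 with the cAMP response element and -0.08 for 59 without. A match describes letters only.

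At 3 hr, the respiratory chain as a whole lay where all genes lay. The median mean log2 ratio was -0.02 over the 75 tested genes and -0.01 over all 12826, with 35 genes above 0 and 40 below. With 1 array left out, the chain's median ran from -0.07 without array 1 (45 genes tested) to 0.01 without array 6 (64 genes tested). The 41 genes with values on all 6 arrays had a median of -0.08 with every array kept. Which genes remain thus also moves the median. A mean of at least 0.5 in size was seen in 7 of 75 genes (9.33%), against 6.59% of all genes. limma, with Benjamini-Hochberg adjustment over all genes, called 1 of the 75 at an adjusted p under 0.05, Cox4i2; it called 3.03% of all genes, and 1.86% with a positive ratio. An unadjusted limma p under 0.05 was reached by 11 of 75 genes (14.7%), against 18.5% of all genes. The median SE of a gene's mean was 0.13, both for these genes and for all.

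**Figure D1:**
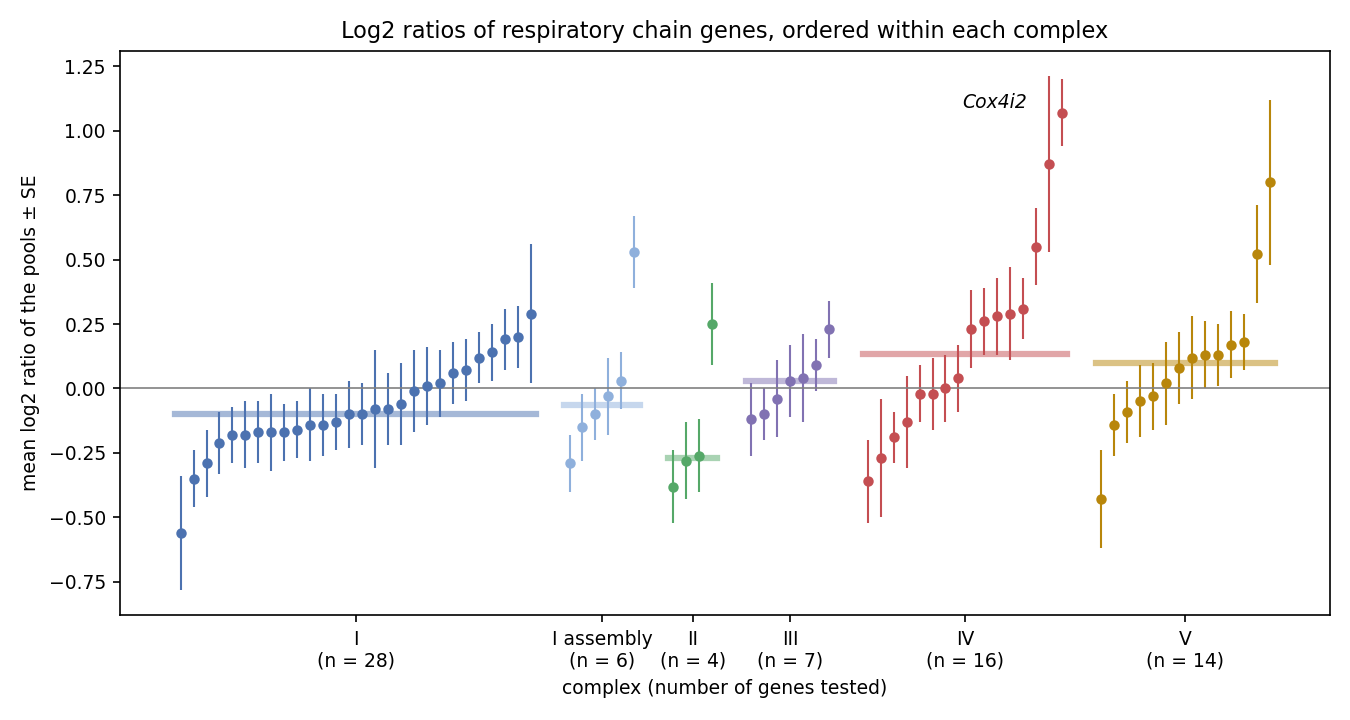
Mean log2 ratio (vertical axis) of the 75 tested respiratory chain genes, ordered by value within each complex; points are limma means over the arrays, bars are SE, and thick lines are the median of each complex. Cox4i2 is the highest point at 1.07, and the complex medians run from -0.27 (complex II) to 0.14 (complex IV).

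Cox4i2 encodes the second isoform of subunit IV of cytochrome c oxidase, known from lung and from cells at low oxygen, where it takes the place of Cox4i1. Its log2 ratio was 0.81, 0.15 and 0.60 on arrays 1, 2 and 3 and 1.59, 1.30 and 1.99 on arrays 4, 5 and 6. It was positive on every array, and the values with the agonist pool in channel 2 lay above all those with it in channel 1. The mean was 1.07 ± 0.13 (SE, 6 arrays; 95% interval 0.78 to 1.36), a 2.10-fold ratio if the logs are to base 2, with a limma adjusted p of 0.00313. Cox4i2 ranked 48 by p among all genes. The orientation means were 0.52 and 1.63, and the orientation term had an unadjusted limma p of 0.00185 and an adjusted p of 0.379. With the 3 channel 1 arrays alone the mean of 0.52 was not called (limma adjusted p = 0.324, with 0.327% of all genes called and 0 of 75 chain genes). With the 3 channel 2 arrays alone, 1.63 was called (limma adjusted p = 0.00305). Leaving out any 1 array gave 0.98 to 1.17 with limma adjusted p-values of 0.00277 to 0.0177. The spots with the probe numbers before and after it had means of -0.24 (an unnamed spot) and 0.10 (Ugp2). Whether they lie beside it on the slide is not known, and a local effect was not tested.

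Cox4i1, the isoform of subunit IV found in most tissues, had log2 ratios of -0.26 and 0.21 on arrays 1 and 3 and 0.18, 0.09 and -0.18 on arrays 4, 5 and 6. These lie on both sides of 0, with a mean of 0.00 ± 0.13 (SE, 5 arrays; 95% interval -0.29 to 0.30). Within an array, the log2 ratio of Cox4i2 exceeded that of Cox4i1 by 1.25 ± 0.64 (SD, n = 5 arrays), from 0.39 to 2.16. It was higher on 5 of 5 arrays, and the two-sided exact sign-flip permutation test gave p = 0.0625, the smallest that 5 arrays allow, or 0.375 after Benjamini-Hochberg adjustment over 6 isoform pairs. The pair was compared with the Cox4i2 call known.

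**Figure D2:**
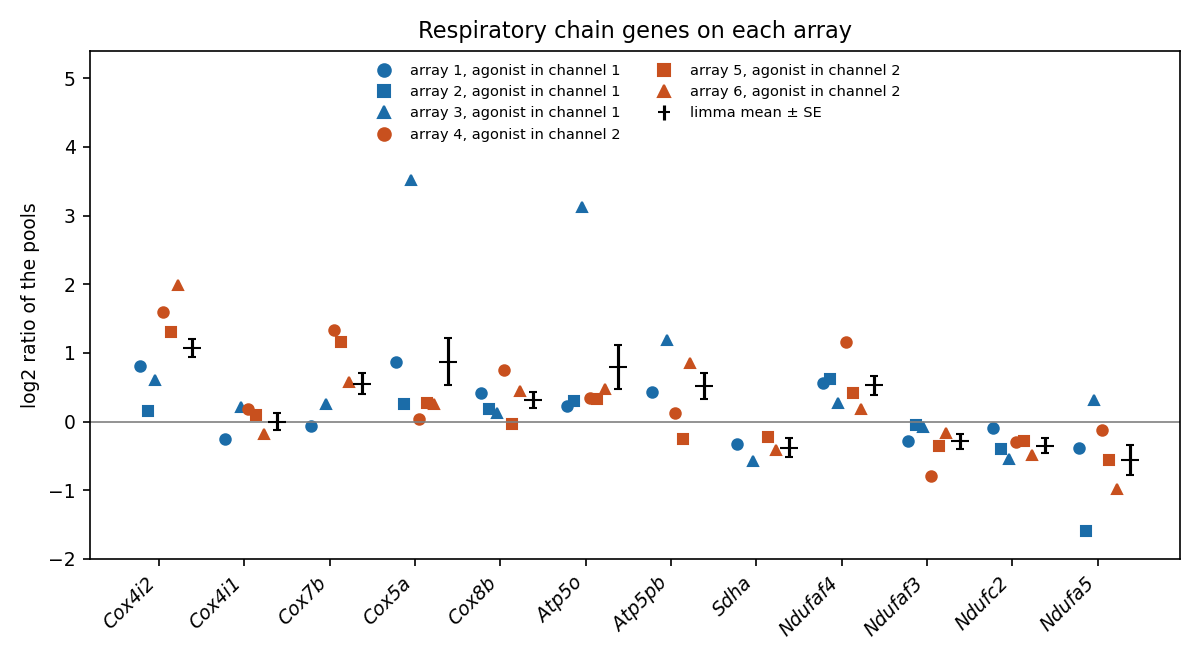
Log2 ratio (vertical axis) on each array for Cox4i1 and the 11 respiratory chain genes with an unadjusted limma p under 0.05; marker shape and colour give the array and the channel of the agonist pool, and black bars are the limma mean ± SE. Cox4i2 is positive on all 6 arrays, and 1 value each of Cox5a (3.52) and Atp5o (3.12), both on array 3, stands far above the rest.

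Complex IV held the widest range of means, from -0.36 to 1.07, with a median of 0.14 over 16 genes (0.07 without array 2), 10 of them above 0. The median was 0.17 with the channel 1 arrays and -0.04 with the channel 2 arrays. Cox5a, a subunit encoded in the nucleus that sits on the matrix side, had log2 ratios of 0.87, 0.26 and 3.52 on arrays 1, 2 and 3 and 0.03, 0.27 and 0.26 on arrays 4, 5 and 6. It was positive on all arrays, but the mean of 0.87 ± 0.34 (SE) rests on array 3: without it, the mean was 0.37 (limma adjusted p = 0.14, and 0.215 with all arrays). The spots with the probe numbers before and after it read 0.32 and -0.24 on array 3. Cox7b, a small membrane subunit, had -0.07 and 0.25 on arrays 1 and 3 and 1.33, 1.16 and 0.57 on arrays 4, 5 and 6. The channel 2 arrays lay above the channel 1 arrays here too, and the mean of 0.55 ± 0.15 (SE) had a limma adjusted p of 0.0851. With the channel 2 arrays alone, Cox7b (1.02, limma adjusted p = 0.0346) and Cox4i2 were the 2 of 79 genes called, against 1.64% of all genes.

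Several complex IV subunits exist as a form of heart, muscle and brown fat and a form of other tissues. Cox8b, of the first kind and a marker of brown fat, had log2 ratios of 0.42, 0.18 and 0.12 on arrays 1, 2 and 3 and 0.75, -0.03 and 0.44 on arrays 4, 5 and 6. They were positive on 5 of 6 arrays, and the mean of 0.31 ± 0.12 (SE) was not called (limma adjusted p = 0.215). Its partner Cox8a, with a mean of -0.13, was near 0 on 5 arrays (-0.10 to 0.27) and at -1.27 on array 4. The difference of 0.44 ± 0.81 (SD, n = 6 arrays) had an exact sign-flip p of 0.188 (adjusted 0.5). Cox7a1, the muscle and brown fat form of subunit VIIa, had a mean of -0.02, as did Cox7a2; they differed by -0.11 ± 0.29 (SD, n = 5 arrays; exact sign-flip p = 0.438, adjusted 0.6). Cox7a1 had values from 0.03 to 0.66 on the channel 1 arrays and from -0.34 to -0.26 on the channel 2 arrays, so its signs split by orientation. Cox6a2, the muscle form of subunit VIa, had a mean of 0.04 and Cox6a1 0.23; they differed by -0.18 ± 0.48 (SD, n = 5 arrays; exact sign-flip p = 0.5, adjusted 0.6). Cox7b2, a testis form of Cox7b, had a mean of -0.27 and lay below Cox7b by a mean difference of -0.61 ± 0.70 (SD, n = 5 arrays; exact sign-flip p = 0.25, adjusted 0.5). With so few arrays, no pair could reach an adjusted p under 0.05, so these tests cannot decide whether isoforms differed. The smallest p a pair allows before adjustment over the 6 pairs is 0.0312 with 6 arrays, 0.0625 with 5 and 0.125 with 4.

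Of the remaining complex IV genes, Cox5b, a zinc-binding subunit, was negative on all 4 arrays with a value, at -0.18 and -0.23 on arrays 1 and 3 and -0.88 and -0.13 on arrays 5 and 6. Its mean of -0.36 ± 0.16 (SE) was the lowest of the complex and was not called (limma adjusted p = 0.294). Cox7a2l, grouped with complex IV by its symbol only, was negative on all 6 arrays, from -0.39 to -0.05, with a mean of -0.19 ± 0.10 (SE). Cox6b1, Cox6c and Cox7c had means of 0.28, 0.26 and 0.29, none of them called.

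Complex I, the largest of the chain, had 28 tested genes named as subunits, with a median of -0.10 (-0.16 without array 3, over fewer genes); 9 means lay above 0 and 19 below, and none was called. The core subunits that carry electrons from NADH lay close to 0. Ndufv1, which binds NADH and flavin, had log2 ratios of 0.76, 0.67 and 0.19 on arrays 1, 2 and 3 and -0.16, -0.33 and 0.08 on arrays 4, 5 and 6. The channel 1 values all exceeded the channel 2 values, and the mean was 0.20 ± 0.12 (SE; 95% interval -0.06 to 0.46). Ndufv2, its iron-sulphur partner, had a mean of -0.18 ± 0.11 (SE), and Ndufs1, the largest iron-sulphur subunit, 0.14 ± 0.11 (SE). Ndufs3 and Ndufs7, of the arm that leads to ubiquinone, had means of -0.17 ± 0.11 and -0.16 ± 0.11 (SE). Ndufs8, an iron-sulphur subunit with 4 values and no test, ranged from -0.20 to 0.44. The 95% intervals of these 5 tested core subunits lay between -0.44 and 0.46.

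Among accessory subunits of complex I, the largest means in size were those of Ndufa5, Ndufc2, Ndufb5 and Ndufa7. Ndufa5 had log2 ratios of -0.38, -1.59 and 0.31 on arrays 1, 2 and 3 and -0.13, -0.56 and -0.98 on arrays 4, 5 and 6. It was negative on 5 of 6 arrays, with a mean of -0.56 ± 0.22 (SE; limma adjusted p = 0.215), or -0.30 without array 2. Ndufc2 was negative on all 6 arrays (-0.09, -0.40, -0.55, -0.30, -0.28 and -0.49), with a mean of -0.35 ± 0.11 (SE; limma adjusted p = 0.113). Its 2 spots disagreed, with means of -0.59 and -0.15 and the same sign on 1 of 5 arrays with both. Ndufb5 (mean 0.29 ± 0.27 SE) ranged from -0.64 on array 1 to 1.43 on array 3, the least settled of the complex. Ndufa7 (mean -0.29 ± 0.13 SE) followed the channel, with 0.61, 0.26 and -0.31 on arrays 1, 2 and 3 and -1.03, -0.64 and -0.60 on arrays 4, 5 and 6. Ndufv3, an accessory subunit of the NADH-binding part, was positive on all 6 arrays but small, from 0.02 to 0.22. Ndufa4, grouped here by its symbol and also known as a subunit of complex IV, had a mean of -0.17 ± 0.15 (SE). The spot annotated Ndufs5-ps carries the name of a pseudogene of the subunit gene Ndufs5, and RNA of such near-identical copies may not be told apart; its mean was -0.08.

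Of the assembly factors of complex I, which help to build it and are not part of it, 6 of 7 were tested, with a median of -0.06, and -0.13 to -0.03 with 1 array left out. Ndufaf4, whose promoter is shown above, had log2 ratios of 0.56, 0.62 and 0.27 on arrays 1, 2 and 3 and 1.16, 0.41 and 0.18 on arrays 4, 5 and 6. All were positive, with channel means of 0.48 and 0.58; the mean of 0.53 ± 0.14 (SE; 95% interval 0.22 to 0.84) missed the threshold (limma adjusted p = 0.0735). Its lowest placement posterior was 0.951, and with a posterior of at least 0.99 the mean was 0.50 (limma adjusted p = 0.139). The spots with the probe numbers before and after it had means of 0.04 (an unnamed spot) and 0.24 (Rpl24, from -0.32 on array 6 to 0.55 on array 3). Ndufaf3, known to work with Ndufaf4 early in assembly, was negative on all 6 arrays (-0.29, -0.05, -0.08, -0.79, -0.36 and -0.17), with a mean of -0.29 ± 0.11 (SE; limma adjusted p = 0.213). Ndufaf5, a modifying enzyme of Ndufs7, had a mean of -0.15 ± 0.13 (SE) and ranged from -0.85 to 0.16. The assembly factors thus did not share a direction.

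Complex II had the lowest median, -0.27 over 4 genes, with no value on array 2 for any of them. Sdha had log2 ratios of -0.32 and -0.57 on arrays 1 and 3 and -0.22 and -0.42 on arrays 5 and 6. All 4 were negative, and the mean of -0.38 ± 0.14 (SE; 95% interval -0.70 to -0.07) was not called (limma adjusted p = 0.192). Sdhb, the iron-sulphur subunit, was negative on 4 of 5 arrays with a mean of -0.28 ± 0.15 (SE). Of the membrane anchors, Sdhd had a mean of -0.26 ± 0.14 (SE), with -0.01 and 0.30 on arrays 1 and 3 and -0.40, -0.51 and -1.10 on arrays 4, 5 and 6. Sdhc lay on the other side, at 0.25 ± 0.16 (SE). The median of complex II was 0.00 with the channel 1 arrays and -0.37 with the channel 2 arrays, so it rested on the latter.

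Complex III and cytochrome c had a median of 0.03 over 7 genes, and none of them reached an unadjusted p under 0.05. The median turned to -0.01 without array 1 or 3, over fewer genes, and to -0.08 without array 5. Uqcrfs1, the Rieske iron-sulphur protein, had log2 ratios of 0.70, -0.24 and 0.31 on arrays 1, 2 and 3 and -0.71, -0.21 and -0.55 on arrays 4, 5 and 6, with a mean of -0.12 ± 0.14 (SE). Cycs, cytochrome c itself, had 0.79, 0.29 and 0.07 on arrays 1, 2 and 3 and -0.16, -0.21 and -1.02 on arrays 4, 5 and 6, with a mean of -0.04 ± 0.15 (SE). Both were higher in channel 1 orientation than in channel 2, and Cycs without overlap. Uqcrq, a small subunit, was positive on 5 of 6 arrays with a mean of 0.23 ± 0.11 (SE), the highest of the complex. Its 2 spots had means of 0.27 and 0.16 but the same sign on only 1 of 5 arrays with both. Uqcrh, the hinge protein, had a mean of -0.10 ± 0.10 (SE).

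Cyc1, the cytochrome c1 of complex III, was printed 17 times and so shows how much repeat spots of a gene differ on an array. The mean of the 17 spots was 0.00, 0.00 and -0.21 on arrays 1, 2 and 3 and 0.23, 0.45 and 0.09 on arrays 4, 5 and 6, with standard deviations between spots of 0.19 to 0.52. The gene's mean over arrays was 0.09 ± 0.10 (SE). By probe number, the spots lay in 4 blocks of 4 and 1 apart. On array 1 the block means ran from -0.45 to 0.29, and on array 5 from 0.23 to 0.68. The spots of Gapdh and Ldha in the same blocks shifted as well: the block with -0.45 for Cyc1 on array 1 had -0.19 for Gapdh and -0.87 for Ldha, its lowest for each of the 3 genes. The block with 0.55 for Cyc1 on array 2 had 0.83 and 0.88, the highest for each. On array 6 the blocks of the 3 genes had different orders. The block thus moved with the ratio on some arrays; its part in the ratios of genes with a single spot was not tested.

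**Figure D3:**
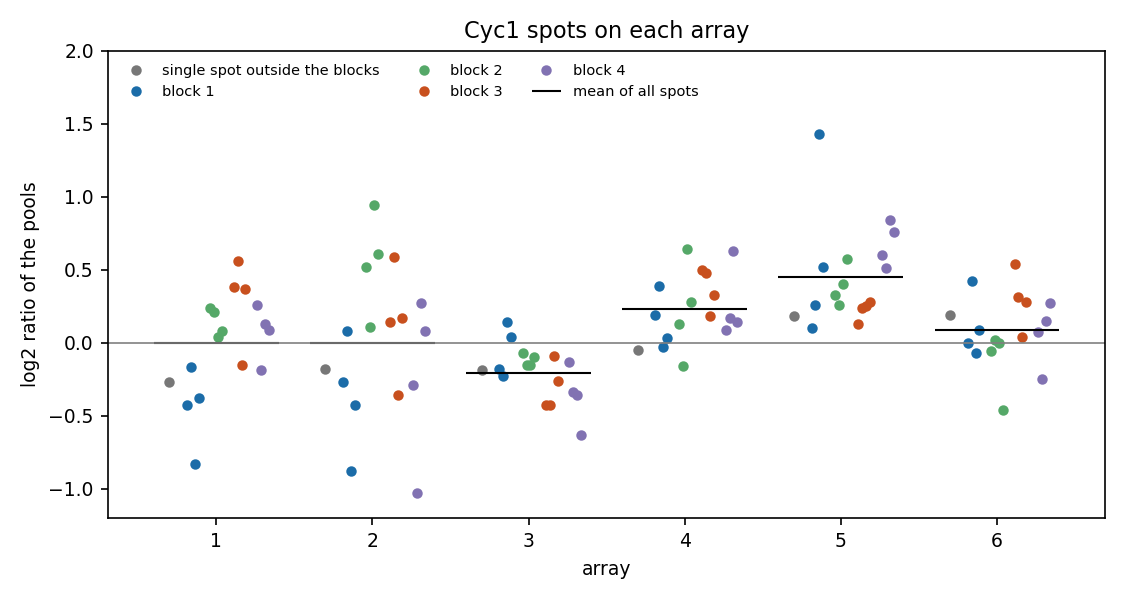
Log2 ratio (vertical axis) of each of the 17 Cyc1 spots on each array (horizontal axis); colours mark the 4 blocks of 4 spots and the single spot apart, and black lines are the mean of all spots. Spots of a block sit together on several arrays, and all 17 are positive on array 5 (0.10 to 1.43).

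The other genes with 2 spots, Ndufa3 and Ndufs1, gave means of 0.10 and 0.03 and of 0.20 and 0.13. Their spots had the same sign on 4 of 6 and 2 of 5 arrays.

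Complex V, the ATP synthase, had a median of 0.10 over 14 genes, 9 of them above 0. The median was 0.21 without array 1, 0.16 without array 5 and 0.07 without array 6, over fewer genes. It was 0.22 with the channel 1 arrays and -0.03 with the channel 2 arrays, so it rested on the former. The means of the catalytic head lay near 0. Atp5a1 (alpha) had -0.05 ± 0.14 (SE, 5 arrays), Atp5b (beta) -0.03 ± 0.13 and Atp5c1 (gamma) 0.02 ± 0.16 (SE, 4 arrays each). Their 95% intervals lay between -0.38 and 0.39. Each of these means averaged opposite signs by orientation. The channel 1 means were 0.21, 0.22 and 0.30 in that order, and the channel 2 means -0.31, -0.28 and -0.26. Of 4 peripheral stalk genes, none was called. Atp5o, the stalk protein that gives oligomycin sensitivity, had log2 ratios of 0.23, 0.30 and 3.12 on arrays 1, 2 and 3 and 0.35, 0.33 and 0.48 on arrays 4, 5 and 6. It was positive on all 6 arrays and narrow but for array 3; the mean was 0.80 ± 0.32 (SE; limma adjusted p = 0.225), and 0.32 without that array (0.126). The spots with the probe numbers before and after it read 0.12 and 0.14 on array 3. Atp5pb, subunit b of the stalk, had 0.43 and 1.19 on arrays 1 and 3 and 0.13, -0.26 and 0.85 on arrays 4, 5 and 6, positive on 4 of 5, with a mean of 0.52 ± 0.19 (SE; limma adjusted p = 0.184). The other stalk genes, Atp5h (subunit d) and Atp5j (coupling factor 6), had means of 0.18 ± 0.11 and 0.13 ± 0.12 (SE). All 4 stalk genes had their highest value on array 3; with the channel 2 arrays alone, Atp5o, Atp5pb, Atp5h and Atp5j had means of 0.39, 0.24, 0.00 and -0.09. Atp5l, subunit g of the membrane part, had the lowest mean, -0.43 ± 0.19 (SE), with 0.16 and -0.36 on arrays 1 and 3 and -1.26 and -0.26 on arrays 5 and 6. Atp5g1 and Atp5g2 encode the same proton-carrying c subunit; they had means of 0.08 and 0.13 and differed by -0.06 ± 0.28 (SD, n = 4 arrays; exact sign-flip p = 0.75, adjusted 0.75, with 0.125 the smallest possible).

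Read by array, the chain's median followed the dye orientation. Over the tested genes it was 0.09, 0.00 and 0.14 on arrays 1, 2 and 3 and -0.10, -0.13 and -0.08 on arrays 4, 5 and 6. All genes had medians from -0.04 to 0.02, so the chain lay above them in channel 1 orientation and below them in channel 2 orientation; that difference was not tested. The orientation term was called by limma for 0 of 75 chain genes (1 of all genes), and 9 of 75 (12.0%) had an unadjusted p under 0.05, against 10.5% of all genes. Of these, Cox7a1, Cycs, Ndufa7, Ndufaf7, Ndufv1, Sdhd and Uqcrfs1 were higher in channel 1 orientation, and Cox4i2 and Cox7b in channel 2 orientation.

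**Figure D4:**
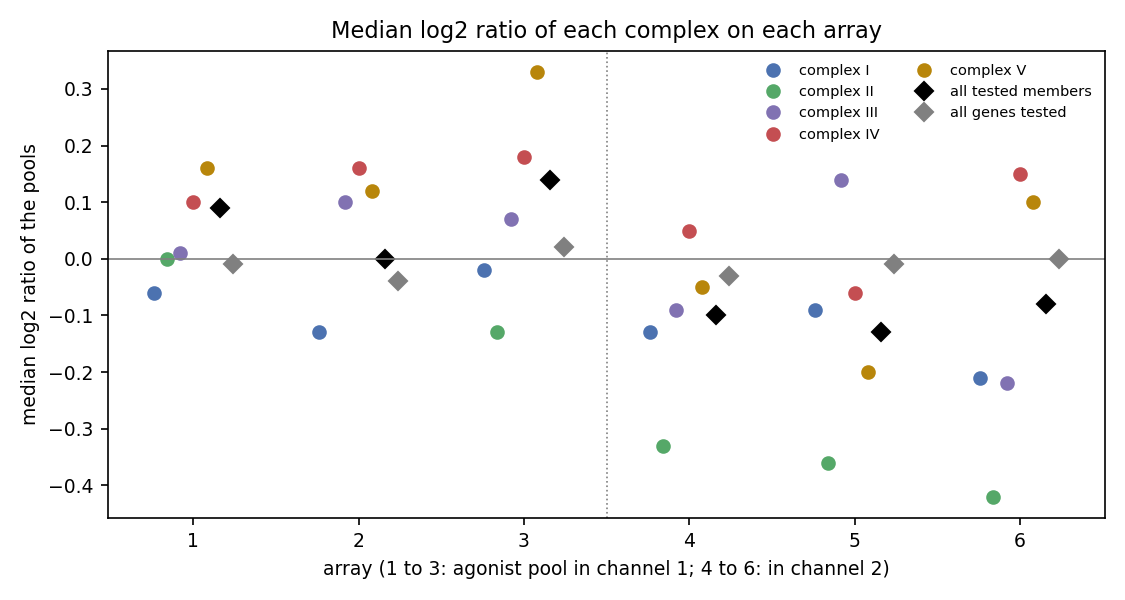
Median log2 ratio (vertical axis) of each complex on each array (horizontal axis), with black diamonds for all tested respiratory chain genes and grey diamonds for all genes; complex II has no value on array 2. The black diamonds run from 0.00 to 0.14 on arrays 1 to 3 and from -0.13 to -0.08 on arrays 4 to 6, while the grey ones stay between -0.04 and 0.02.

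Of 41 chain genes with values on all arrays, 8 had the same sign on all 6 (19.5%), against 10.7% of all such genes. The positive ones were Atp5o, Cox4i2, Cox5a, Ndufaf4 and Ndufv3 (12.2%, against 5.45%), and the negative ones Cox7a2l, Ndufaf3 and Ndufc2 (7.32%, against 5.29%). Under robust regression, which gives stray arrays less weight, limma called 6 of 75 chain genes (Atp5o, Cox4i2, Cox5a, Cox7b, Ndufaf4 and Ndufc2), a share of 8.0% beside 8.98% of all genes.

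Beyond the chain's own genes, 3 of 62 tested genes in 5 lists of the same pathways were called (4.84%, against 3.03% of all genes), and 17 had an unadjusted limma p under 0.05 (27.4%, against 18.5%). Of 22 tested assembly factors and chaperones of complexes I to V outside the Ndufaf genes, 0 were called and 4 had an unadjusted limma p under 0.05: Cox18 (-0.43), Sco1 (-0.62), Tmem126b (-0.31) and Sdhaf4 (-0.41), which help to build complexes IV, IV, I and II. Of 11 regulators of mitochondrial transcription, 1 was called: Ppargc1a had 0.97, 0.64 and 0.19 on arrays 1, 2 and 3 and 1.63, 0.63 and 0.56 on arrays 4, 5 and 6, positive on all. Its mean was 0.77 ± 0.16 (SE; limma adjusted p = 0.0365). Tfam, which packages mitochondrial DNA and helps to start its transcription, and Polg, the polymerase that copies that DNA, had negative means of -0.38 and -0.82 (limma adjusted p = 0.142 and 0.0652). Of 13 citric acid cycle genes, Idh3b, a subunit of isocitrate dehydrogenase, was called (0.56 ± 0.12 SE; limma adjusted p = 0.0486). Idh3g, Idh3a (-0.27) and Suclg2 (-0.35) reached only an unadjusted p under 0.05; Idh3g had a mean of 0.80 with 2.82 on array 3, and 0.39 without that array.

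Of 11 genes that feed or make ubiquinone, the carrier between complexes I or II and III, 1 was called. Coq10b, a ubiquinone-binding protein needed for its function in the chain, had log2 ratios of 2.62, 2.26 and 1.08 on arrays 1, 2 and 3 and 2.31, 1.82 and 1.18 on arrays 4, 5 and 6. The groups of arrays overlapped, and the mean of 1.88 ± 0.21 (SE; limma adjusted p = 0.00183) exceeded that of each gene of the chain. Coq9, of ubiquinone synthesis, had -0.34 (0.151). Of 5 uncoupling and leak genes, 0 were called. Ucp1 was positive on all 4 arrays with a value (0.62, 0.78, 0.26 and 0.32), with a mean of 0.49 ± 0.13 (SE; limma adjusted p = 0.097). Ucp3 had 0.48, Slc25a4, the ATP and ADP carrier, -0.38 and Nnt -0.41, each at an unadjusted p under 0.05. The genes of the mitochondrial ribosome, which translates the subunits encoded in mitochondrial DNA, had a median of -0.04 over 69 tested genes, with 1 called (1.45%, against 3.03% of all genes) and 16 at an unadjusted p under 0.05 (23.2%, against 18.5%).

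Marker genes of other cells were read in 5 lists, of which the seminal vesicle and epididymis list held most of the calls. Of its 7 tested genes, 5 were called with a negative ratio (Svs2, Svs4, Svs5, Svs6 and Pate4, from -5.47 to -1.16) and Serpina1f with a positive one (4.68), while Sva (-0.66) was not called; the median over the list was between -2.85 and -0.45 on the arrays. Of 6 brown or beige fat markers, among them the chain genes Cox7a1 and Cox8b, Dio2 was called (1.18), Ucp1, Kcnk3 (0.45) and Cox8b reached only an unadjusted p under 0.05, and the list's median was between 0.07 and 0.84. Of 11 skeletal muscle markers, Tnnc2 was called (1.14), Tnni2 (0.33) reached only an unadjusted p under 0.05, and the list's median was between -0.09 and 0.19. Of 8 white fat markers 0 were called, with list medians from 0.01 to 1.01; Adipoq (0.34), Fabp4 (0.39), Cidec (1.17), Car3 (0.54) and Pparg (-0.47) had an unadjusted p under 0.05. Of these, 3 means leaned on array 3: Cidec had 3.17 there (others 0.07 to 0.94), Car3 1.85 (others -0.08 to 0.59) and Fabp4 1.32 (others -0.48 to 0.66). Of 7 macrophage markers 0 were called, with list medians from -0.08 to 0.37; Cd163 (-0.39) had an unadjusted p under 0.05. The part of these cells in the ratio of Cox4i2 or of any other gene of the chain was not tested.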

How the data were processed

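Pooled RNA was labelled with fluorescein or biotin, detected by tyramide amplification and scanned, per the labels' protocols. The deposited values are log ratios, taken as log2 (a natural log is possible), which the authors made with a uniform scale factor and LOWESS, per the labels; no source used here gives background correction or spot filters. Columns were empty only at their ends (1 to 724 rows), so rows did not correspond. Columns were placed on probe numbers by a hidden Markov model that lets columns lose but not gain spots, from 96 starts, and values with a posterior of at least 0.95 were kept (64.0% of probes on array 2, 92.1% to 99.8% on the others). This was chosen after seeing the data and raises the arrays' agreement, which it relies on. Placed arrays correlated at a mean rank correlation of 0.28 within and 0.11 across orientations, against 0.0 as deposited. Names came from the platform annotation. On 10 genes printed 17 times, gene identity took 66.5% of the variance at the numbering used and at most 61.3% at 24 shifted ones. All Cyc1 spots but 1 lie at numbers 16332 to 18350, so this says little about low numbers, such as 296 for Sdha. The repeated spots follow each other at short steps, so a shifted numbering can land on repeated genes as well.

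Gene values, means over spots, were fitted with limma 3.58.1 (R 4.3.3; lmFit, eBayes) with an orientation term, at least 2 arrays per orientation, and adjusted over all genes. Placement and fit were run on simulated data with known answers, whose outcome is not given here. The placement simulation gave all arrays the same strength of signal and noise. Array 2 had an SD of 0.79 and the others 0.42 to 0.57, so that simulation may not hold for array 2. Named are called genes, the 3 largest means per complex, core subunits, isoform pairs, genes with several spots or a value over 2 from the median of the other arrays, and, in the pathway and marker lists, those with an unadjusted p under 0.05; Cox7a2l, Cox6b1, Cox6c, Cox7c, Ndufv3, Ndufs5-ps, Atp5h and Atp5j were added after their values were seen. The pair of Cox7b2 and Cox7b was not among the isoform pairs planned. Genes and lists were chosen with earlier results of these data known. Alternatives covered placement, orientation, spots, filter, scale, single arrays and robust regression.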

Additional observations from a re-analysis of the deposited data

Results flagged for a closer look

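In 8 of 75 respiratory chain genes, the value on 1 array stood apart from the others by Dixon's criterion at 95%, applied to the repeat arrays of each gene. That is 10.7% of these genes, against 7.95% of all 12826 genes examined the same way; chance alone flags about 1 in 20. Array 3 held 3 of them: Cox5a (3.52, others 0.03 to 0.87), Atp5o (3.12, others 0.23 to 0.48) and Atp5j (0.84, others -0.19 to 0.12). Array 2 held Cox7b2 (-1.80, others -0.09 to 0.27) and Ndufaf5 (-0.85, others -0.20 to 0.16). Array 5 held Cox5b (-0.88, others -0.23 to -0.13) and Uqcrb (0.59, others -0.12 to -0.02), and array 4 held Cox8a (-1.27, others -0.10 to 0.27). Without its outlying array the mean of Cox7b2 was 0.06, that of Cox8a 0.12 and that of Uqcrb -0.08, each with the sign turned.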

How the results depend on the processing

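Cox4i2 was called under every alternative that used placed rows except the channel 1 arrays alone. Of 1281 values of single genes under 19 alternatives, 1257 kept their call or, uncalled, moved by less than 1 SD of the arrays. That criterion is loose: with rows as deposited, which do not correspond, Atp5o went from 0.80 to -0.16 and still met it. The count therefore does not measure how stable the values are. With the channel 1 arrays alone, 0 genes of the chain were called, beside 0.327% of all genes, and 8 had an unadjusted p under 0.05. The median was 0.09, 21 of 44 genes had 1 sign, and the medians of assembly factors and complex II were 0.099 and -0.002. With the channel 2 arrays alone, 2 were called, beside 1.64% of all genes. In that fit 17 had an unadjusted p under 0.05, 27 of 66 had 1 sign, and the median of complex IV was -0.044. With arrays 1, 4, 5 and 6 only, chosen after seeing the data, 14 of 65 had 1 sign and 6 an unadjusted p under 0.05. Placement on absolute values left 2 of 9 with 1 sign, and a posterior of at least 0.99 gave complex IV a median of 0.232. Robust regression called 6, beside 8.98% of all genes, with 22 at an unadjusted p under 0.05. Leaving out 1 array gave 6 to 11 at an unadjusted p under 0.05 (7 without array 1, 6 without array 5, 7 without array 6), with 44 to 75 genes tested. For these alternatives, the shares of all genes with 1 sign or an unadjusted p under 0.05 are not given. A single sign is also reached more easily with fewer arrays, so these counts describe the fits and not the chain. Rows as deposited, which do not correspond, gave 0 calls, 2 of 77 with 1 sign, 2 at an unadjusted p under 0.05, and medians of 0.018, 0.058 and -0.01 for complexes I, II and IV; signs turned, with a move over 1 SD, for Atp5c1 (-0.55), Atp5j (-0.39), Cox7b (-0.05), Cox8b (-0.02), Ndufa12 (0.26), Ndufa8 (0.04), Ndufab1 (0.31), Ndufaf4 (-0.25), Ndufb10 (0.17), Sdhb (0.12) and Uqcrh (0.08). No paired analysis was possible because the labels number the arrays in 1 series, with no number shared by both orientations. The causes of these changes were not tested beyond the fewer arrays or genes some alternatives use. Signal over background is unknown.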

Other observations

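Among the 41 respiratory chain genes with values on all arrays, array 3 held the highest value for 12, while 22.5% of all genes had their highest value there. Genes of the pathway and marker lists with their highest value on array 3 included Cidec (3.17), Idh3g (2.82), Retn (2.47), Fh1 (2.01), Car3 (1.85) and Fabp4 (1.32). Array 2 was missing for 33 of the 79 chain genes (41.8%), against 39.3% of all genes.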
